A study of Penicillium oxalicum with 6 samples.

Results

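POX03395 to POX03425 is a stretch of 31 consecutive gene identifiers of the filamentous fungus Penicillium oxalicum. It was followed here in mycelium with and without the gene POX00158. Every identifier whose number lies in this range was taken, which gave 31 of the 9284 genes listed in at least 1 library. The stretch was chosen on earlier results of these same libraries, namely the levels and the fold changes between the strains along the identifier order. Those values are therefore given as a description, with no p-value, and counts of called genes are printed beside the share over all genes and support nothing.

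The libraries came from 2 strains. MuPOX00158 is a mutant of POX00158, which the series describes as encoding a phosphokinase, and Ku70 is labelled as a mutant of Ku70, a gene of DNA end joining that is often removed in fungi to ease gene targeting. The labels do not say whether MuPOX00158 also carries the Ku70 change, nor whether each strain is a single isolate. Per the labels, hyphae of both strains were kept for 24 h in shaken liquid medium at 28 °C, with 1% Avicel, a microcrystalline cellulose, as the substrate. The labels also give 6 days on plates for both strains. Each strain has 3 libraries, named by the letters F, S and T of their labels. Nothing says that these came from separate cultures, so any spread between them may be technical.

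In filamentous fungi, genes for the steps of one secondary metabolite pathway often lie side by side on a chromosome and are switched on together, while most other neighbouring genes are regulated independently. Kinase cascades are among the regulators known to act on such pathways, on secreted enzymes and on development. For this reason neighbouring genes are often read together. The deposited tables give neither positions nor names for the identifiers, so whether consecutive numbers are chromosomal neighbours is not given in the sources used here, and no role can be assigned to any gene of the stretch. A RefSeq table of Penicillium oxalicum HP7-1 (assembly ASM172317v3) shares no locus tag with the files. Taking equal numbers as the same gene gave a Spearman correlation of 0.01 between the lengths of 3734 genes in that table and the lengths implied by the files, a description across genes. Its positions were therefore not used.

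The libraries held 2983815 to 3259601 expected counts each, an expected count being the estimated number of reads of a gene. POX00158 had 4, 8 and 9 counts in MuPOX00158 F, S and T and 1067, 569 and 763 in Ku70 F, S and T, so every library carried the level its label calls for. Levels are in CPM, counts per 1000000 reads after TMM scaling, or in FPKM, which is also divided by gene length and is used to compare genes with each other. Ku70 F stood furthest from the other Ku70 libraries, with a chi-square per gene of 51 against Ku70 S and 38.4 against Ku70 T, where the other pairs within a strain lay between 5.6 and 20.5. In bulk mycelium, fewer cells that express a gene and less RNA per cell cannot be told apart. No member had a fractional count, the sign of reads shared with a similar sequence, compared with 32 such genes in all.

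The stretch as a whole held more reads in MuPOX00158, and much of this excess belonged to a single gene. Its members summed to 3824, 3614 and 4039 CPM in MuPOX00158 F, S and T and to 744, 692 and 750 CPM in Ku70 F, S and T. Every MuPOX00158 library lay far above every Ku70 library. The means were 3825 ± 212 and 729 ± 31.6 CPM (SD, n = 3 each), a ratio of 5.25. Without POX03413 the other 30 members summed to 1864 ± 196 and 726 ± 31.1 CPM, a ratio of 2.57. The stretch took 0.394 ± 0.0317% of all reads in MuPOX00158 and 0.0711 ± 0.0067% in Ku70.

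The members did not move as one block. Of the 31, 26 had enough reads to be tested, and 12 of these were called higher in MuPOX00158, 2 were called lower and 12 were not called (edgeR quasi-likelihood test, adjusted p below 0.05 over all 7757 genes tested). The shares are 46.2% higher and 7.69% lower, beside 18.6% higher and 18.6% lower over all tested genes. Without Ku70 F, 13 members were called higher and 1 lower, beside 20.6% and 21.8% of all genes tested in that fit. Without MuPOX00158 T or Ku70 T, 10 were called higher and 0 lower, beside 12.8% and 12.4% of all genes, and 13.4% and 14.9%, respectively. With a minimum of 2-fold, 11 members were called higher and 1 lower, where the background was 10.2% and 12.4%. In 15 tested members all MuPOX00158 libraries lay above all Ku70 libraries, and in 2 all lay below, while the background was 27.5% and 24.2%. The median log2 fold change (MuPOX00158 over Ku70) was 0.43 in the tested members and 0.00 over all tested genes. Called members were interspersed with members not called. Of the 26, 14 lay within 2-fold (53.8%, beside 75.5% over all tested genes), the called POX03404 and POX03424 among them. Between tested neighbours the log2 fold change stepped by a median of 1.77, beside 0.702 over all tested neighbours. Of 25 steps, 18 were at least 1 (72.0%, beside 36.1% over all tested neighbours).

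**Figure D1:**
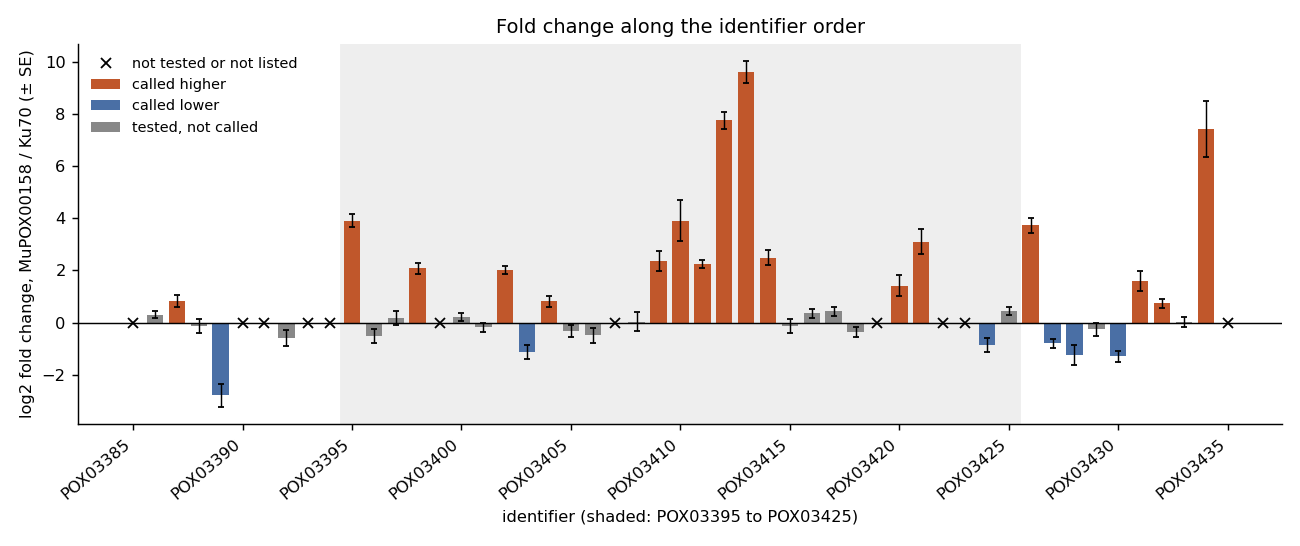
Log2 fold change (MuPOX00158 over Ku70, bars, with ± SE) for each identifier of the stretch (shaded) and for the 10 identifiers on either side; crosses mark genes not tested or not listed. The 6 bars from POX03409 to POX03414 are all called higher, and they form the longest series called in the same direction in the shaded part, with the highest bar, 9.59, at POX03413.

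The centre of the stretch was an unbroken series of 6 genes, POX03409 to POX03414, all called higher. These limits were drawn after the values were seen. In sum the 6 genes averaged 2302 ± 29.6 CPM in the mutant libraries against 32.3 ± 4.75 CPM in the Ku70 libraries (SD, n = 3 each), a ratio of 71.3, and their median log2 fold change was 3.20. Without POX03413 the other 5 summed to 341 ± 14.5 and 29.8 ± 3.43 CPM, a ratio of 11.4. On both sides the series ended at once: POX03408 before it had a log2 fold change of 0.04 (SE 0.35) and POX03415 after it one of -0.13 (SE 0.27), neither called.

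POX03413 was the dominant gene. It had 5994, 6367 and 6373 counts in MuPOX00158 F, S and T and 4, 6 and 13 counts in Ku70 F, S and T. In CPM these are 1961, 1946 and 1978 against 1.29, 2.05 and 4.12. The gene was thus close to silent in all 3 Ku70 libraries and among the most abundant transcripts in all 3 MuPOX00158 libraries, with no overlap. Its log2 fold change was 9.59 (SE 0.42), the seventh highest of the 7757 genes tested. A fold this large rests on a total of 23 counts in Ku70. By length-scaled level POX03413 ranked 32 of 9070 genes listed in MuPOX00158 (2745 ± 98.3 FPKM) and 7709 of 9060 in Ku70 (3.33 ± 2.06 FPKM; SD, n = 3 each). It held 51.3, 53.9 and 49.0% of the stretch's reads in MuPOX00158 F, S and T, and 0.174, 0.296 and 0.549% in Ku70 F, S and T.

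**Figure D2:**
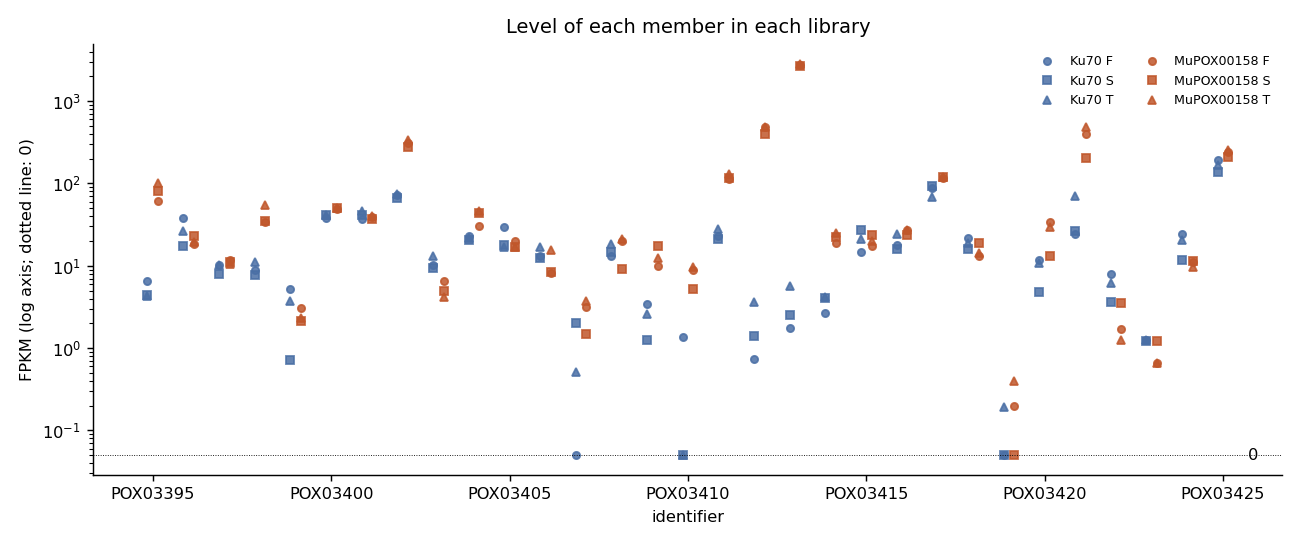
FPKM of every member in every library on a log axis, in identifier order; colours mark the strain, symbols the letter, and points on the dotted line are genes not listed in that library (taken as 0). POX03412 and POX03413 show the widest gap between the strains, and POX03413 reaches 2855 FPKM in MuPOX00158 T.

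POX03412, the gene before it, had the second largest change. It had 646, 575 and 647 counts in MuPOX00158 F, S and T and 1, 2 and 5 in Ku70 F, S and T. The strains did not overlap, and here too Ku70 was at the edge of detection. The log2 fold change was 7.75 (SE 0.33), or 8.49 without Ku70 T, and the level of 459 ± 47.9 FPKM in MuPOX00158 was the second highest of the stretch, 5.98-fold below that of POX03413. In both genes the lowest Ku70 value was in F and the highest in T.

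The next gene, POX03414, changed far less, so that the fold change dropped by 7.10 on the log2 scale from POX03413 to POX03414. It measured 11.4, 13.4 and 14.3 CPM in MuPOX00158 F, S and T and 1.62, 2.73 and 2.54 CPM in Ku70 F, S and T, without overlap (log2 fold change 2.49, SE 0.30). POX03411, on the other side of the pair, was a moderately expressed gene in both strains. It measured 106, 110 and 115 CPM in MuPOX00158 F, S and T against 21.7, 21.8 and 26.3 CPM in Ku70 F, S and T, again without overlap (log2 fold change 2.24, SE 0.15).

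The remaining members of the central series were weak in both strains. POX03410 had 19, 12 and 21 counts in MuPOX00158 F, S and T and 3, 0 and 0 in Ku70 F, S and T. A count of 0 allows up to 0.936 CPM in Ku70 S and 0.950 CPM in Ku70 T (3 counts of the total). The ratio of its summed counts, scaled to library totals, was 17.6, with an exact 95% interval of 5.69 to 88.0 that covers counting error only. All of its Ku70 counts were in F: the fitted log2 fold change was 3.91 (SE 0.77) with all libraries and 7.11 without Ku70 F, a value that then rests on the prior count. POX03409 averaged 15.9 ± 4.86 CPM in MuPOX00158 against 3.03 ± 1.26 CPM in Ku70 (n = 3 each, ± SD), a log2 fold change of 2.37 (SE 0.38).

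**Figure D3:**
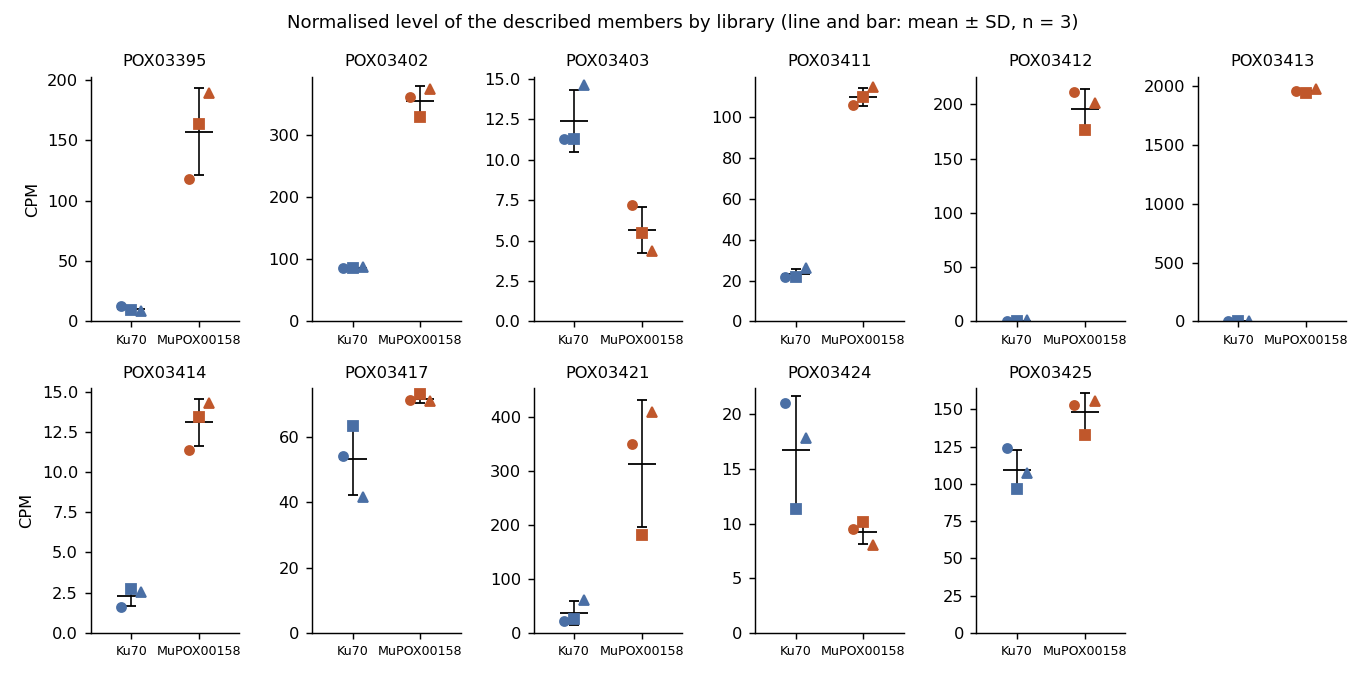
CPM of the 11 members described library by library, with linear axes from 0; each symbol is a library (circle F, square S, triangle T), and line and bar are mean ± SD (n = 3). The strains do not overlap in any panel, but the gap is wide for POX03412 and POX03413 and narrow for POX03424 and POX03425.

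Before the centre, from POX03395 to POX03404, 4 of the 9 tested genes were called higher and 1 lower. Over all tested genes 18.6% were higher and 18.6% lower. POX03395 and POX03398 each stood between identifiers that were not called, not tested or not listed. POX03395, the first identifier, measured 118, 163 and 189 CPM in MuPOX00158 F, S and T and 12.9, 9.55 and 8.56 CPM in Ku70 F, S and T. All MuPOX00158 libraries were above all Ku70 libraries, and the log2 fold change was 3.91 (SE 0.25). Its neighbour POX03396 had a log2 fold change of -0.50 (SE 0.27) and overlapped between the strains.

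POX03398 and POX03402 were about 4-fold higher in MuPOX00158. POX03402 was well expressed in both strains, at 362, 330 and 375 CPM in MuPOX00158 F, S and T and at 86.1, 86.6 and 87.8 CPM in Ku70 F, S and T. Its Ku70 libraries were nearly identical, with an SD of 1.01% of the mean, below the 6.14% that read counting alone gives. The strains did not overlap, and the log2 fold change was 2.03 (SE 0.15). POX03398 averaged 110 ± 27.4 CPM in MuPOX00158 against 26.1 ± 3.79 CPM in Ku70 (n = 3 each, ± SD), and its log2 fold change was 2.08 (SE 0.22).

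Directly after POX03402 came POX03403, one of the 2 members called lower. It measured 7.20, 5.50 and 4.34 CPM in MuPOX00158 F, S and T and 11.3, 11.3 and 14.6 CPM in Ku70 F, S and T, so the strains did not overlap (log2 fold change -1.12, SE 0.28). POX03404 was again called higher, with 34.1 ± 7.13 against 19.4 ± 0.364 CPM (n = 3 each, ± SD) and a log2 fold change of 0.81 (SE 0.20). The calls of both POX03403 and POX03404 were lost without MuPOX00158 T (log2 fold changes -0.96 and 0.73) and without Ku70 T (-1.0 and 0.78).

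The other tested genes ahead of the centre were not called. POX03397, POX03400 and POX03401 had log2 fold changes of 0.17, 0.22 and -0.18. POX03405, POX03406 and POX03408 had -0.33, -0.49 and 0.04. POX03400 lay without overlap above Ku70, at 37.7 ± 1.0 against 32.3 ± 3.02 CPM (SD, n = 3 each), whereas the libraries of the other 5 overlapped. POX03399 had 4, 3 and 3 counts in MuPOX00158 F, S and T and 7, 1 and 5 in Ku70 F, S and T, and POX03407 had 6, 3 and 7 against 0, 4 and 1, too few for either to be tested.

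After the centre, POX03415 to POX03418 were near their Ku70 level. Their log2 fold changes were -0.13, 0.36, 0.43 and -0.35, and none was called. POX03417, the best expressed of these per length, measured 116.12, 118.58 and 121.08 FPKM in MuPOX00158 F, S and T and 87.35, 93.06 and 68.02 FPKM in Ku70 F, S and T. Its strains did not overlap, and its edgeR log2 fold change of 0.43 (SE 0.18) was not called. It became a call without Ku70 S (0.56), with plain library sizes (0.52) and with limma, an alternative fit, on either log2 FPKM scale (0.53 each).

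POX03420 and POX03421 formed a second, shorter pair of genes called higher. POX03421 measured 349, 181 and 409 CPM in MuPOX00158 F, S and T and 21.7, 25.9 and 61.5 CPM in Ku70 F, S and T. The strains did not overlap, but within each strain the highest library had more than 2-fold the lowest. The log2 fold change was 3.10 (SE 0.47), or 3.70 without Ku70 T. POX03420 measured 34.7, 13.8 and 29.5 CPM in MuPOX00158 F, S and T and 12.3, 5.46 and 11.1 CPM in Ku70 F, S and T. Its MuPOX00158 S value was close to its highest Ku70 value (log2 fold change 1.42, SE 0.41). Its call was lost without any one of 4 libraries: MuPOX00158 F (1.17), MuPOX00158 T (1.33), Ku70 S (1.13) and Ku70 T (1.52). In both genes MuPOX00158 S was the lowest library of its strain.

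POX03424 was the other member called lower. It measured 9.49, 10.1 and 8.07 CPM in MuPOX00158 F, S and T and 21.0, 11.3 and 17.8 CPM in Ku70 F, S and T, where Ku70 S came close to the mutant libraries (log2 fold change -0.86, SE 0.28). With the letter as a replicate block the fold change was -0.83 and the call was lost, which left 1 member lower in place of 2. Among the fits without 1 library, the call of POX03424 held only without Ku70 S. The number of members lower was 0 without MuPOX00158 T or Ku70 T and 1 without MuPOX00158 F or Ku70 F. It was 2 without MuPOX00158 S and 3 without Ku70 S, both of which include POX03422 (log2 fold changes -2.02 and -1.70), a gene that the fit to all 6 libraries did not test.

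POX03425, the last identifier, was the member with the highest level per length in Ku70. It measured 240.58, 206.89 and 256.49 FPKM in MuPOX00158 F, S and T and 191.76, 136.80 and 166.61 FPKM in Ku70 F, S and T. The strains did not overlap, and its log2 fold change of 0.44 (SE 0.15) was not called, but was called without Ku70 F (0.54). POX03419, POX03422 and POX03423 were not tested. POX03419 had 3 counts over MuPOX00158 and 1 over Ku70, POX03423 had 4 and 6, and POX03422 had 16 and 43.

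With the most abundant gene of each side included, the summed ratio of MuPOX00158 to Ku70 was below 1 on both sides of the stretch. Called genes continued past the last identifier of the stretch. The ratio was 0.259 over the genes listed among the 10 identifiers before it and 0.748 over the 10 after it. Inside it was 5.25, or 2.57 without POX03413. A single abundant gene weighed on each outer sum. Neither outer ratio was computed without it, so neither can be compared with the 2.57 inside. Before the stretch, POX03389 averaged 215 CPM in MuPOX00158 and 1490 CPM in Ku70, out of sums of 449 and 1730 CPM. After the stretch, POX03430 averaged 414 and 1014 CPM, out of 891 and 1192 CPM. The tested genes had medians of -0.13 before, 0.03 after and 0.43 inside on the log2 scale. From the last tested gene before it, POX03392 (-0.59), to POX03395 the log2 fold change stepped up by 4.50. Its first member, POX03395, had a log2 fold change of 3.91; before it POX03394 was listed in no library and POX03393 had too few reads to be tested. Its last member, POX03425, had 0.44, while POX03426, just outside, had 3.72 (SE 0.28). POX03426 measured 75.6, 42.5 and 60.2 CPM in MuPOX00158 F, S and T and 4.86, 3.75 and 4.76 CPM in Ku70 F, S and T, a larger change than that of most members. POX03427, POX03428 and POX03430 beyond it were called lower (log2 fold changes -0.80, -1.25 and -1.29), while POX03431 and POX03432 were called higher (1.60 and 0.74).

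POX03434 lay 9 identifiers past the last member and had a log2 fold change of 7.42 (SE 1.06), close to that of POX03412. Its MuPOX00158 libraries differed widely, at 186, 43.7 and 517 CPM in F, S and T, against 1.94, 1.36 and 0.951 CPM in Ku70 F, S and T. As in POX03420, POX03421 and POX03426, S was the lowest MuPOX00158 library. Among the 26 tested members of the stretch, the lowest MuPOX00158 library was F in 9, S in 10 and T in 7. POX03435 after it had 28, 9 and 73 counts in MuPOX00158 F, S and T and 1, 2 and 0 in Ku70 F, S and T, and was not tested.

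On the lower side, POX03389 was the only called decrease among the 10 identifiers before the stretch. It measured 245, 246 and 155 CPM in MuPOX00158 F, S and T and 704, 2306 and 1461 CPM in Ku70 F, S and T (log2 fold change -2.79, SE 0.44). Of the 5 genes tested there, POX03387 was called higher (0.81), and POX03386, POX03388 and POX03392 were not called (0.30, -0.13 and -0.59). Of the 9 tested after the stretch, 4 were called higher and 3 lower, beside 18.6% higher and 18.6% lower over all tested genes.

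**Figure D4:**
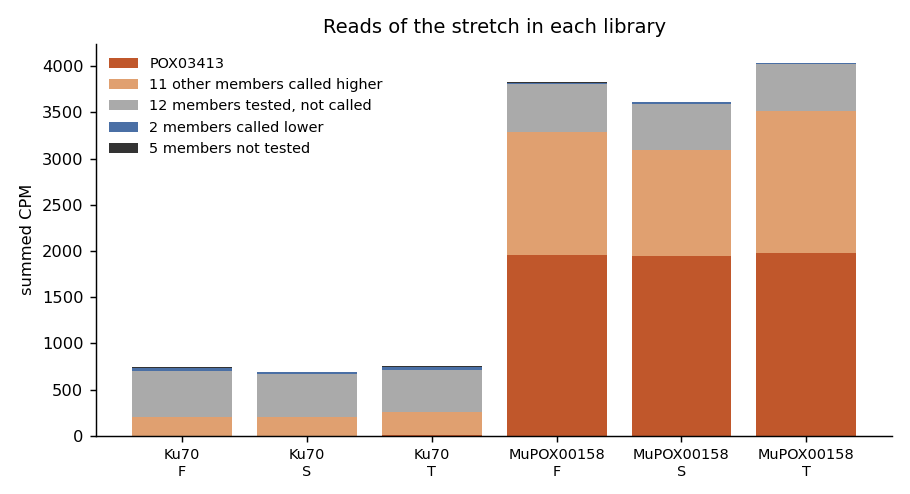
Summed CPM of the 31 members in each library, stacked by class. POX03413 fills 1946 to 1978 CPM of each MuPOX00158 bar and at most 4.12 CPM of a Ku70 bar, and the 12 members tested and not called fill 454 to 511 CPM of each of the 6 bars.

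The 11 members called higher other than POX03413 summed to 218 ± 29.4 CPM in the Ku70 libraries and to 1336 ± 194 CPM in the mutant libraries (n = 3 each, ± SD). The 12 uncalled members summed to 471 ± 21.2 and 508 ± 5.18 CPM, and the 2 members called lower to 29.1 ± 5.68 and 14.9 ± 2.22 CPM. The calls that define these classes rest on the same contrast, so the sums only describe how the reads were divided.

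Levels per length were modest in Ku70. A single member, POX03425, averaged at least 100 FPKM there, and 14 averaged under 10 FPKM. In MuPOX00158, 7 members reached 100 FPKM and 7 lay under 10 FPKM. The share of tested members at 100 FPKM or more was 3.85% in Ku70, beside 20.9% of all tested genes. In MuPOX00158 it was 26.9%, beside 21.5%. The members at 100 FPKM or more in MuPOX00158 were POX03413, POX03412, POX03421, POX03402, POX03425, POX03411 and POX03417. The median over the 26 tested members was 18.9 FPKM in Ku70 and 25.9 FPKM in MuPOX00158, beside 35.3 and 38.0 FPKM over all tested genes.

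The spread between libraries of 1 strain, a measure that the choice of the stretch did not use, had a median near that of all tested genes. The median coefficient of variation (CV) of the tested members was 12.1% in MuPOX00158 and 19.9% in Ku70, beside 13.4% and 19.3% over all tested genes. In MuPOX00158 it ran from 0.809% for POX03413 to 41.9% for POX03420. The value for POX03413 was below the 1.27% that read counting alone gives at its depth. POX03421, although it had far more reads than POX03420, varied by 37.8%, where counting alone gives 3.17%. In Ku70 the highest value, 173%, was that of POX03410, which had reads in 1 library.

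The members differed widely in length. The effective lengths implied by counts and FPKM ran from 431 bases for POX03399 to 3019 bases for POX03405. Their median was 916 bases over the tested members and 1262 bases over all tested genes. The 2 genes with the largest changes were short, with 438 bases for POX03412 and 733 bases for POX03413, and among the genes called higher POX03398 was the longest at 2765 bases.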

How the data were processed

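The authors deposited 1 table for each of the 6 libraries, with an expected count and an FPKM value per gene (units per the file headers). The submitters' processing notes name DESeq2, BWA 0.7.10-r789, RSEM 1.2.12 and Bowtie2 2.1.0, but not their roles. Which genome build, annotation and strand setting were used is not given in the sources used here, so overlapping genes cannot be told apart. Genes absent from a table were taken as 0 (28 of the 31 members are in all 6 tables).

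The test was run on rounded expected counts in edgeR 4.0.16 (R 4.3.3; filterByExpr with a minimum count of 10 and total of 15, TMM, quasi-likelihood test, Benjamini-Hochberg at 0.05 over 7757 genes). SE is the size of the log2 fold change over the root of its F statistic. The fit was tested on simulated data. These held no effect of the letter, so they cannot check the fit where libraries are paired. Alternatives used DESeq2 1.42.0 and limma 3.58.1 on log2(FPKM + 1 or 0.1). Same-lettered libraries of the 2 strains deviated together (r = 0.150, 0.219 and 0.159 across genes for F, S and T). Unlike letters gave r from -0.177 to 0.034. All are correlations of deviations from strain means, which ties these values to one another. The letters were taken to pair the libraries. The main fit, however, left this pairing out. It entered only the alternative with the letter as a replicate block, which called 12 members higher and 1 lower.

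The members, tests and named genes were chosen with earlier results of these data known. Library values are given for POX03413, the 8 members with the highest FPKM, the 5 with the largest change at 10 CPM or more, and the members called lower; other values were added after they were seen. No sequence is shown, since the identifiers could not be tied to a reference.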

Additional observations from a re-analysis of the deposited data

How the results depend on the processing

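The 12 members called higher became 10 to 13 under every alternative run, and the median log2 fold change of the tested members stayed between 0.34 and 0.52. Calls over all genes moved too, from 18.6% higher and 18.6% lower in the main fit. With 1 library left out they ran from 12.8 to 20.6% higher and from 12.4 to 21.8% lower. Of 7757 genes, 852 were higher and 868 lower at an adjusted p below 0.01. With plain library sizes 1625 were higher and 1288 lower, and with a 2-fold minimum 792 and 962. The 2 members called lower became 1 with upper-quartile scaling, plain library sizes, no filter, the replicate block, limma on either FPKM scale and a 2-fold minimum, became 0 at an adjusted p below 0.01, and ran from 0 to 3 when 1 library was left out. The cause was not tested. Of 388 comparisons of single members with an alternative, 364 kept their side of the threshold, 19 lost a call and 5 gained one, and no call reversed. POX03424 lost its call in 11 of them. The log2 fold change of POX03413 ran from 9.29 without Ku70 F to 10.16 without Ku70 T, the library with most of its Ku70 reads. The log2 ratio of the summed CPM, 2.39, was 2.47 with plain library sizes, 2.77 with summed FPKM and 1.36 without POX03413. Plain library sizes moved the median of all genes by 0.08. The replicate block changed no other call of a member than that of POX03424. Of the 5 members with few reads, none was called without the filter, and POX03422 was called lower without MuPOX00158 S and without Ku70 S.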
